A study of Mus musculus with 3 samples.

Results

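The 8 genes described here encode the invariant signalling chains and coreceptors with which a developing T cell reads its antigen receptor. Cd3d, Cd3e and Cd3g encode the CD3 delta, epsilon and gamma chains, Cd247 the CD3 zeta chain, Ptcra the pre-TCR alpha chain, and Cd4, Cd8a and Cd8b1 the coreceptor chains. They were taken as the genes of these symbols among 19938 genes for which the array has a probe set annotated with 1 symbol. Each of the 8 genes had 1 such probe set, and 0 further probe sets shared any of them with another symbol. The levels come from Affymetrix MoGene 1.0 ST arrays, on which short probes bind labelled cDNA, and are given on the log2 scale. RNA of thymocytes from 3 wild-type mice, numbered 92, 103 and 106, of mixed FVB and C57BL6 background, was measured on 1 array each. They are the normal group of a study of lymphomas in tPTEN-/- mice. Those lymphomas are not analysed here, and the values below describe normal thymocytes and how far the 3 mice differed. No label states the age of the mice or a treatment.

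In the thymus, precursors that carry neither CD4 nor CD8 (double-negative cells) first rearrange the receptor beta gene and pair its product with pre-TCR alpha. The pre-TCR and the later alpha-beta receptor have no signalling tail of their own and depend on the CD3 and zeta chains, whose cytoplasmic tails carry the phosphorylation motifs called ITAMs. Cells that pass this checkpoint express both coreceptors (double-positive cells), and they keep CD4 or CD8 after selection on MHC class II or class I (single-positive cells).

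The labels set limits on the arrays. Each sample is listed with 0.3 µg of RNA and a low integrity number (RIN) of 3. Their disease state field reads lymphoma, whereas titles and genotype read wild type. All 7 measured thymocyte markers lay above background, among them Rag1 and Rag2, the recombinase genes, Dntt, which encodes TdT, and Satb1. The mice differed in sex-linked transcripts: Xist was at 5.30, 11.85 and 11.67 in mice 92, 103 and 106, and Uty, a Y-linked gene, at 9.74, 3.91 and 4.13. Mouse 92 alone had low Xist and high Uty. Differences below that set mouse 92 apart from mice 103 and 106 follow the same split, and the part of sex in them was not tested. The median over named genes was 6.71, 6.86 and 6.76 on the log2 scale in the same order. Precision is limited by having 3 arrays. The labels number the mice and say no more about the sampling, so each p-value reflects only how these samples differ.

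The start sites of 6 of the 8 genes, all but Cd4 and Cd8b1, could be matched to promoter windows from RefSeq, build GRCm38.p6. Cd3g and Cd3d lie head to head on chromosome 9, with 1355 bases between their starts, and Cd3e follows 27825 bases beyond the start of Cd3d. The 250 bases before the start are shown for this divergent pair, whose levels spanned 0.08 (Cd3g) and 0.38 (Cd3d) between mice on the log2 scale, and for Ptcra, the only member expressed mainly before the double-positive stage. Capitals mark CANNTG, the E-box that E proteins such as E2A and HEB can bind, found on either strand.
Cd3g (chr9:44980432-44980681, minus strand): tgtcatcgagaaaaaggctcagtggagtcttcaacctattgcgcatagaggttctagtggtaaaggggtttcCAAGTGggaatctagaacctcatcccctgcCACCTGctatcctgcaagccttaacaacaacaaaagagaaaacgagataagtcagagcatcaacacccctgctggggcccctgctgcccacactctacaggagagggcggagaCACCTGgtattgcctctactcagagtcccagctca
Cd3d (chr9:44981536-44981785, plus strand): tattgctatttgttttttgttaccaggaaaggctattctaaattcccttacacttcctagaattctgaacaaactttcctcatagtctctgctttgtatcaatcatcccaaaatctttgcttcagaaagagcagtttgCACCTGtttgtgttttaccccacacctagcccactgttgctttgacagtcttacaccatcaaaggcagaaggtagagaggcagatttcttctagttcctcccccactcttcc
Ptcra (chr17:46763713-46763962, minus strand): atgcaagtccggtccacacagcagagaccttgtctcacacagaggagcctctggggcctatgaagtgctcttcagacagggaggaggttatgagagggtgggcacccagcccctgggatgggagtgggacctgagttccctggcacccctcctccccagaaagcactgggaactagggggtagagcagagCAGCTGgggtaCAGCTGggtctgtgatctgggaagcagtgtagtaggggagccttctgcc
Ptcra had 2 matches, 60 and 49 bases before the start, and both were CAGCTG. At least 2 CAGCTG matches were found in 1.26% of the 32851 mouse windows of this length, and at least 1 in 13.0%. Cd3g had 3 CANNTG matches, Cd247 and Cd8a had 2 each, and Cd3d and Cd3e had 1 each. None of these was CAGCTG, which is a special case of CANNTG, and 66.2% of all windows held at least 1 CANNTG match. The core TGTGGT, which RUNX factors can bind, was searched on both strands and found in 0 of the 6 windows, against 14.0% of all windows. The TATA box sequence TATAAA was also in 0 of the 6, against 12.4%. These matches describe the letters in the windows and not binding.

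All 8 genes were transcribed above background in every mouse. Background was the 95th percentile, on each array, of 1203 chemosensory receptor genes of the nose (olfactory, vomeronasal and trace amine). It lay at 5.91 in mouse 92, at 6.10 in mouse 103 and between these in mouse 106, and 61.8% of all named genes exceeded it on all 3 arrays. The 8 genes exceeded it by 1.99 to 7.42 on the log2 scale. Probes differ in affinity, so these heights do not order the genes by transcript number.

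**Figure D1:**
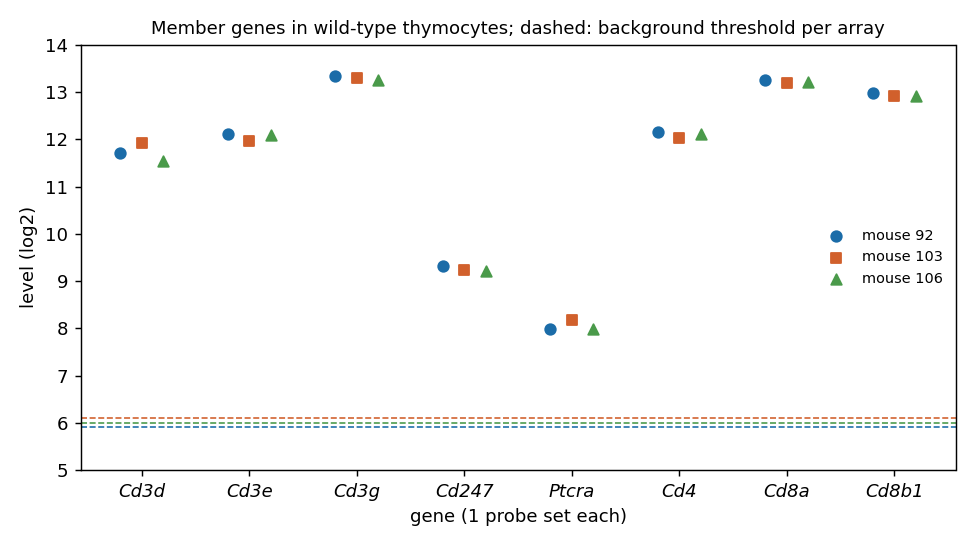
Log2 level of the 8 genes (horizontal axis) on the arrays of mice 92 (circles), 103 (squares) and 106 (triangles); dashed lines are the background threshold of each array. Every point lies above the threshold, and the 3 points of a gene lie within 0.38 of each other.

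CD3 epsilon pairs with CD3 delta and with CD3 gamma, and these pairs flank the receptor. Cd3g had levels of 13.33, 13.30 and 13.25 in mice 92, 103 and 106, with a mean of 13.30 ± 0.04 (SD, n = 3) on the log2 scale. Its values spanned 0.08, a 1.06-fold range, but 0.22 after quantile normalization and 0.18 after median centring. Cd3e was at 12.11, 11.96 and 12.09 in mice 92, 103 and 106, a mean level of 12.05 ± 0.08 (SD, n = 3), with mouse 103 lowest. Cd3d had the widest span of the 8 genes, except after median centring, when Cd3e spanned 0.31 and Cd3d 0.28. Its levels in mice 92, 103 and 106 were 11.72, 11.91 and 11.53, a mean level of 11.72 ± 0.19 (SD, n = 3) and a 1.30-fold range. Mouse 103 was highest and mouse 106 lowest for Cd3d, while Cd3e was lowest in mouse 103. Cd247 encodes the zeta chain, which joins the complex last and carries the most ITAMs of the CD3 chains. It was at 9.31, 9.23 and 9.21 in mice 92, 103 and 106, a mean level of 9.25 ± 0.05 (SD, n = 3). RefSeq lists 8 transcripts for Cd247, and its single probe set does not tell them apart.

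On the deposited values, Cd8a and Cd8b1 had the narrowest spans of the 8 genes; after quantile normalization or cyclic loess Cd247 and Cd4 were narrower, and after median centring Ptcra and Cd3g were. CD8 alpha forms a dimer with CD8 beta that binds MHC class I, and CD4 binds MHC class II; both bring the kinase LCK to the receptor. Cd8a was at 13.24, 13.18 and 13.22 in mice 92, 103 and 106, a mean level of 13.21 ± 0.03 (SD, n = 3). Cd8b1, its neighbour on chromosome 6, was at 12.97, 12.92 and 12.92, a mean level of 12.94 ± 0.03 (SD, n = 3). Their ranges were 1.05-fold and 1.04-fold, with spans of 0.06 and 0.05 that were 0.21 and 0.20 after median centring. Cd4 was at 12.15, 12.03 and 12.11 in mice 92, 103 and 106, a mean level of 12.10 ± 0.06 (SD, n = 3), so that all 3 coreceptor genes were highest in mouse 92 on the deposited scale.

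Ptcra was the gene nearest to background. Its levels were 7.99, 8.18 and 7.99 in mice 92, 103 and 106, a mean level of 8.05 ± 0.11 (SD, n = 3). It exceeded the threshold by 2.07, 2.08 and 1.99, and the stricter 99th percentile of the receptor genes by 1.31, 1.18 and 1.14. In a whole thymocyte sample, fewer cells that express a gene and less RNA per cell cannot be told apart, so the level of Ptcra does not give the share of cells at the pre-TCR stage.

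Whether any of the 8 genes varied between the mice more than genes of like level do was tested over 13316 genes above background on at least 1 array. With limma, 0 of the 8 genes varied (Benjamini-Hochberg adjusted p from 0.996 to 0.998), and 0 did at an unadjusted p under 0.05, which 4.85% of all tested genes had. The background share was 0.225% of all tested genes, 30 genes. The smallest unadjusted p among the 8 was that of Cd3d, 0.19 in limma's variance test. A p above the threshold does not show that the mice were equal. The SD expected for genes of their level lay between 0.127 and 0.151, and the observed SDs lay below it for all but Cd3d.

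The span between mice was narrow for most of the 8 genes. Its median was 0.11 on the log2 scale for the 8 genes and 0.25 for all tested genes, and 7 of the 8 lay below the latter median. Of the tested genes, 4.27% had a smaller SD than Cd8a, 3.79% a smaller one than Cd8b1 and 7.28% a smaller one than Cd3g. The shares were 11.8% for Cd247, 15.3% for Cd4, 24.7% for Cd3e, 37.6% for Ptcra and 73.9% for Cd3d. Spread falls slightly with level. Among genes with a mean within 0.5 of their own, 7.32% of 41 had a smaller SD than Cd8a, 6.25% of 64 than Cd8b1, 15.6% of 32 than Cd3g and 78.8% of 293 than Cd3d. After each array was centred on its median over named genes, the median span was 0.22 for the 8 genes and 0.27 for all tested genes, and 5 of the 8 lay below that of all genes.

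**Figure D2:**
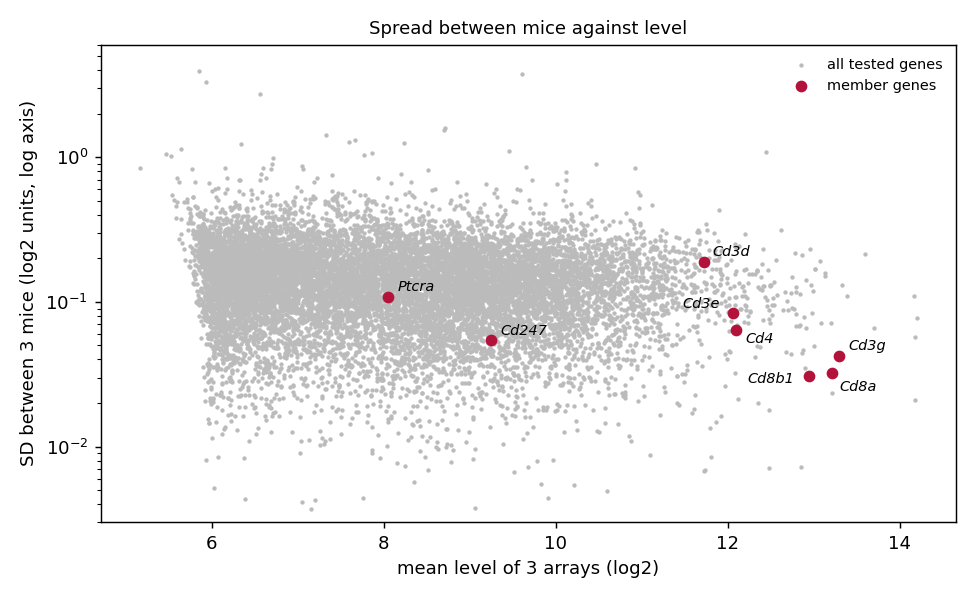
SD between the 3 mice (vertical, log axis, log2 units) against mean level (horizontal, log2) for 13316 tested genes (grey) and the 8 genes (red, named). Cd8a and Cd8b1 lie low in the cloud at an SD of 0.03, and Cd3d lies highest of the 8 at 0.19.

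Which mouse was highest depended on the scaling. On the deposited values 6 of the 8 genes, all but Cd3d and Ptcra, were highest in mouse 92, against 37.4% of all tested genes. Median centring gave the same 6 genes, against 54.1% of all tested genes. After quantile normalization, and likewise after cyclic loess, only Cd247 remained highest in mouse 92 while 5 genes were highest in mouse 103. Of all tested genes, 34.7% after quantile normalization and 35.0% after cyclic loess were highest in mouse 92. The shares highest in mouse 103 were 34.4% and 33.6%. Cd3d kept its order at both ends: it was highest in mouse 103 and lowest in mouse 106 under the deposited scale and all 3 alternatives. Ptcra was highest in mouse 103 under all 4 as well, by 0.09 over the lowest mouse after median centring and by 0.21 after quantile normalization.

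**Figure D3:**
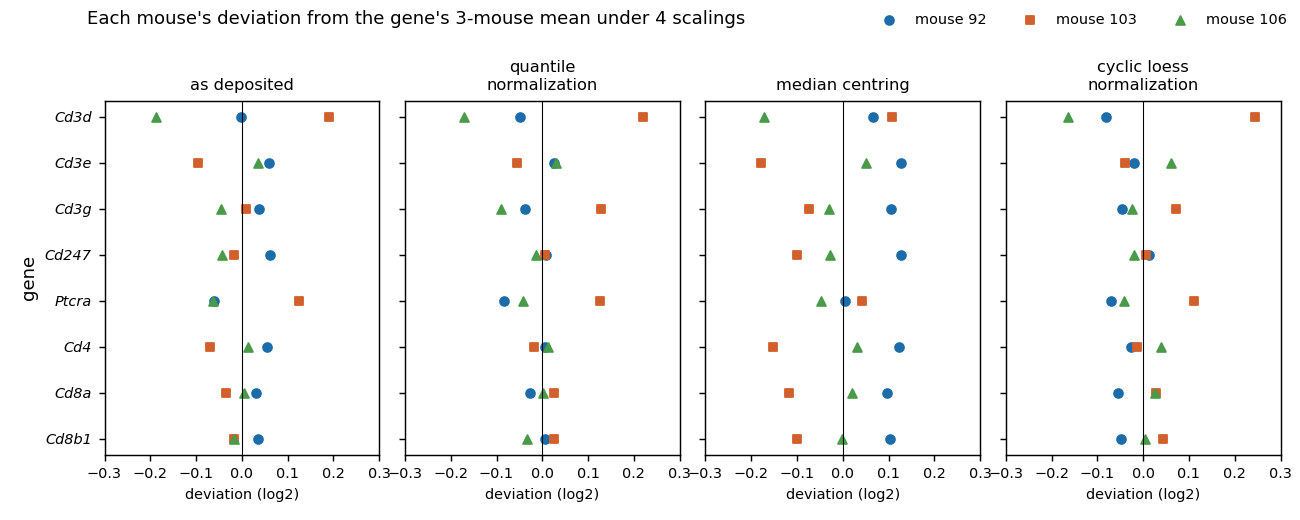
Deviation of each mouse from the gene's mean (horizontal, log2) for the 8 genes (rows) on the deposited values and under 3 other scalings. Mouse 103 is the rightmost point for Cd3d and Ptcra in every panel, and mouse 92 for Cd247. For the other genes the rightmost mouse changes between panels.

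Differences between genes on the same array do not depend on array-wide shifts, and they were compared between mice for 5 pairs. Cd8a minus Cd8b1 was 0.27, 0.26 and 0.30 in mice 92, 103 and 106, the narrowest span of all 28 pairs of the 8 genes on the deposited values, at 0.04. Cd4 minus Cd8a was -1.09, -1.15 and -1.11 in mice 92, 103 and 106, a 1.04-fold span, which was 1.05-fold after quantile normalization. Cd4 minus Cd8b1 spanned 1.06-fold. The size of each difference also reflects probe affinity and has no meaning of its own.

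The other 3 of the 5 pairs had wider spans, although Cd3g minus Cd247, outside these 5, spanned 0.05. Cd3e minus Cd247 was 2.80, 2.72 and 2.88 in mice 92, 103 and 106, a span of 0.16. Cd3d minus Cd3g, the divergent pair, was -1.62, -1.40 and -1.72, a span of 0.32 on the deposited values, 0.31 after cyclic loess and 0.17 after quantile normalization. Ptcra minus Cd3e was -4.12, -3.78 and -4.10, a span of 0.34, with mouse 103 apart from the other mice. The widest span of the 28 pairs, 0.51, was that of Cd3d minus Cd3e. Among the 15 pairs of the other 6 genes, without Cd3d and Ptcra, the spans ran between 0.04 and 0.19.

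The genes next to the members on the chromosome were mostly above background too. Of 20 neighbouring genes, taken as the nearest named genes on each side, 17 exceeded it on all 3 arrays, against 61.8% of all named genes. Ube4a, a ubiquitin ligase gene beside Cd3g, was at 10.26, 10.17 and 10.14 in mice 92, 103 and 106. Mpzl2, an adhesion gene on the far side of Cd3e, was at 7.05, 7.37 and 8.14, a span of 1.08 beside the 0.16 of Cd3e, and did not pass limma's test (adjusted p = 0.265). Lag3, which encodes a CD4-related inhibitory receptor and lies beside Cd4, was at 8.04, 7.79 and 7.82. Rmnd5a, beside Cd8a, was at 11.78, 11.54 and 11.61. The 3 neighbours not above background on every array were Dusp27 and Gpa33 beside Cd247, and Gnmt near Ptcra, at mean levels of 5.21, 5.56 and 5.89.

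The other neighbours passed with narrow to moderate spans. Atp5l, a gene of the mitochondrial ATP synthase, Mpzl3 and the leukocyte gene Rcsd1 had means of 9.03, 7.38 and 10.79. Creg1 was at 7.09, and Cnpy3, a chaperone gene for Toll-like receptors, at 9.07, 9.11 and 8.82 in mice 92, 103 and 106. 2310039H08Rik and the ribosomal protein-like gene Rpl7l1 had means of 7.71 and 9.85. Near Cd4, P3h3, Gpr162 and Ptms were at mean levels of 7.30, 9.56 and 10.40, and near the Cd8 genes Gm1070, Krcc1 and Rnf103 at 6.93, 8.06 and 8.62. Apart from Mpzl2, the spans of the 20 neighbours lay between 0.03 and 0.61.

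The signalling partners of the receptor were also above background throughout. Of 25 receptor-proximal signalling partners listed, 23 were measured and all 23 lay above background on all 3 arrays. With limma 0 of the 23 varied, and 2, Cd28 and Trat1, had an unadjusted p under 0.05, against 4.85% of all tested genes. Their median span was 0.19, beside 0.11 for the 8 genes and 0.25 for all tested genes, but after median centring it was 0.28, beside 0.22 and 0.27. Grap2, an adaptor gene, was at 11.72, 11.72 and 11.71 in mice 92, 103 and 106, and Sla, whose product SLAP lowers receptor levels on thymocytes, at 11.94, 11.91 and 11.91. Cd28, the costimulatory receptor gene, had the widest span of the list, at 11.35, 10.67 and 10.90 (adjusted p = 0.755, limma). Trat1, which encodes the receptor-associated adaptor TRIM, was at 10.16, 9.74 and 9.57 (adjusted p = 0.991, limma).

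The same held for regulators of the coreceptor and pre-TCR genes. Of 19 listed, 17 were measured, 17 were above background and 0 varied in limma's test, with 3 (Runx3, Id3 and Notch1) at an unadjusted p under 0.05, against 4.85% of all tested genes. Their median span was 0.20, against 0.25 for all tested genes, and 0.30 against 0.27 after median centring. Lef1 was at 11.99 in each of the 3 mice, and Tox, needed for the CD4 lineage, at 10.06, 10.02 and 10.05. Notch1, whose signal drives Ptcra in early thymocytes, was at 10.23, 10.63 and 10.87 in mice 92, 103 and 106 (adjusted p = 0.869, limma). Id3, an inhibitor of E proteins, was at 8.18, 8.77 and 8.83 (adjusted p = 0.770, limma).

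Ptcra differed less between mice than most genes of the double-negative stage. Of the 12 genes on that list, 10 were higher in both mouse 103 and mouse 106 than in mouse 92, and 9 or 10 of the 12 were lowest in mouse 92 under each scaling. Of all tested genes 35.1% were lowest in mouse 92 on the deposited values and 20.0% to 36.1% under the other scalings. The 10 neutrophil and 9 B cell markers were lowest in mouse 92 too, and their part in these values was not tested. The median span of the 12 genes was 0.63, against 0.25 for all tested genes. Above background on all arrays were 11 of the 12, all but Spi1. With limma 0 of the 12 varied. An unadjusted p under 0.05 was found for 6 (Il2ra, Dtx1, Notch1, Lmo2, Spi1 and Mef2c), against 4.85% of all tested genes. Spi1, among these 6, was at 5.74 in mouse 92, under the threshold of 5.91. Spi1 thus entered the test only through the other mice. Il2ra, which encodes CD25, was at 7.77, 8.49 and 8.79 in mice 92, 103 and 106 (adjusted p = 0.291, limma), and the Notch target Dtx1 at 8.26, 9.17 and 9.22 (adjusted p = 0.264, limma). Ptcra differed by 0.19 between mice 103 and 92 and by less than 0.01 between mice 106 and 92. Mouse 92 was the lowest for Ptcra after quantile normalization (7.97, 8.18 and 8.02 in mice 92, 103 and 106) and after cyclic loess (7.98, 8.16 and 8.01). On the same arrays, Ptcra minus Il2ra was 0.22, -0.31 and -0.81 in mice 92, 103 and 106, and Ptcra minus Dtx1 was -0.28, -0.99 and -1.23. The span of the first difference was 1.03 on the deposited values and lay between 1.02 and 1.05 under the other scalings. The difference between Ptcra and these genes had no test of its own and was noticed in the data. At the narrow end of the list, Kit was at 6.80, 6.86 and 6.73 and Hes1 at 6.70, 6.73 and 6.97.

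The measured genes of the later stages were above background on all 3 arrays. Of 10 double-positive genes listed, 9 were measured, 9 were above background and 0 varied in limma's test, with 3 (Rag2, Aqp11 and Cd1d1) at an unadjusted p under 0.05, against 4.85% of all tested genes. Their median span was 0.31 on the deposited values, 0.46 after median centring, 0.15 after quantile normalization and 0.21 after cyclic loess. Mouse 92 was highest for 8 of the 9 on the deposited values and after median centring, against 37.4% and 54.1% of all tested genes. It was highest for 5 after quantile normalization and for 3 after cyclic loess, against 34.7% and 35.0%. Aqp11, an aquaporin gene, was at 11.62, 10.69 and 10.56 in mice 92, 103 and 106 (adjusted p = 0.142, limma), and Cd1d1, which encodes the ligand of NKT cells, at 9.27, 9.47 and 8.61 (adjusted p = 0.447, limma). Satb1, a chromatin organiser that acts at the Cd8 and Cd4 genes, was at 13.74, 13.62 and 13.73 and Dntt at 12.80, 12.65 and 12.64. All 9 measured single-positive genes were above background and 0 varied, with 1 (S1pr1) at an unadjusted p under 0.05 in limma. Their median span was 0.38 on the deposited values, 0.47 after median centring, 0.28 after quantile normalization and 0.25 after cyclic loess. S1pr1, the exit receptor gene, was at 9.56, 8.94 and 9.66, and Cd69, its antagonist, at 9.98, 9.48 and 9.50. Klf2, the regulator of S1pr1, was at 9.11, 9.18 and 9.17, and Slfn2 at 10.52, 10.53 and 10.37.

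The ITAM adaptor genes of other lineages had wider spans between mice than the CD3 genes. Fcer1g, an adaptor of Fc receptors in myeloid and NK cells, was at 6.62, 7.70 and 7.22 in mice 92, 103 and 106. Tyrobp, which encodes DAP12, was at 7.22, 7.73 and 7.56. Cd79a and Cd79b, the chains of the B cell receptor, were at 7.12, 8.26 and 8.44 and at 8.47, 9.56 and 8.85. Both Cd79 genes are also among the B cell markers below. All 4 ITAM adaptor genes were lowest in mouse 92 under the deposited scale and the 3 other scalings. Of all tested genes 35.1% were so on the deposited values and 20.0% to 36.1% under the other scalings. The spans of the 4 lay between 0.52 and 1.32, while Cd3d, Cd3e, Cd3g and Cd247 spanned 0.08 to 0.38. With limma 0 of the 4 passed (adjusted p = 0.335, 0.996, 0.0651 and 0.224 for Fcer1g, Tyrobp, Cd79a and Cd79b). An unadjusted p under 0.05 was found for 3, all but Tyrobp, against 4.85% of all tested genes. The difference in spread between the lists was not tested.

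**Figure D4:**
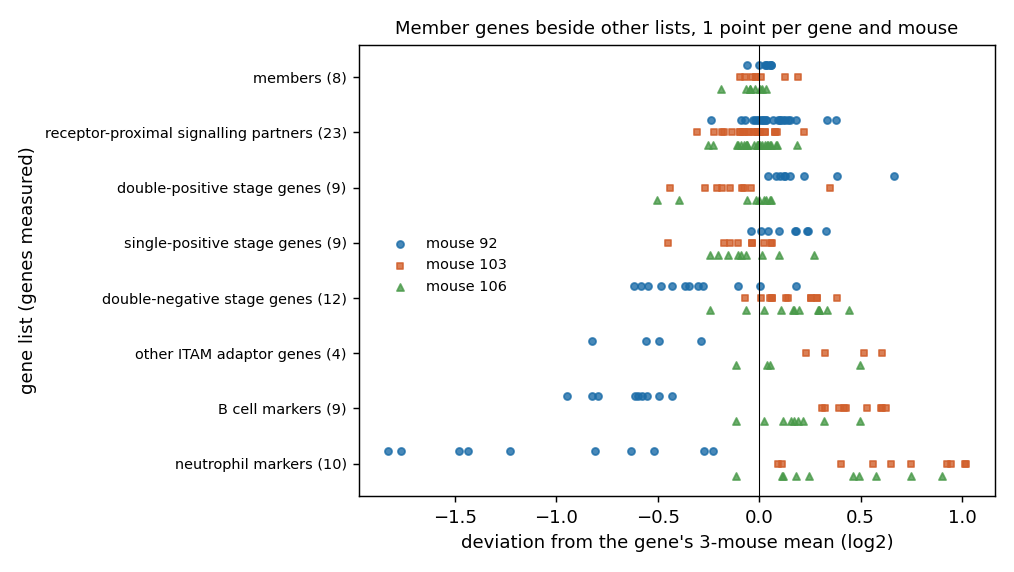
Deviation of each mouse from the gene's 3-mouse mean (horizontal, log2) for the 8 genes (members, top row) and 7 other lists, with 1 point per gene and mouse. The 8 genes lie within 0.2 of 0, whereas mouse 92 lies to the left for the ITAM adaptor, B cell and neutrophil lists. Cd79a and Cd79b are on both the ITAM adaptor and the B cell list.

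Markers of other cells that could be in a thymus suspension also moved between the mice. Mouse 92 was lowest for all 10 neutrophil markers, against 35.1% of all tested genes on the deposited values. Of the 10, 8 were above background on all arrays. In limma 5 varied (S100a8, S100a9, Ngp, Ltf and Lcn2), against 0.225% of all tested genes. Without mouse 92, 0 of these 5 varied; without mouse 103 or mouse 106 all 5 did. After quantile normalization 4 did, all but Ltf, and 0 did with a robust prior and per-gene degrees of freedom. The log2 of their summed levels was 9.82, 11.85 and 11.60 in mice 92, 103 and 106. Mouse 92 was also lowest for all 9 measured B cell markers, with summed levels of 9.98, 11.09 and 10.73. Of the 9, 6 were above background on all arrays, and 1 outside these 6, Cr2, varied (adjusted p = 0.0482, limma). Cr2 was at 5.74, 7.32 and 7.01 in mice 92, 103 and 106. Its level in mouse 92 lay under the threshold of 5.91, so it entered the test only through the other mice. Its adjusted p (limma) was 0.0959 to 0.167 under the 3 other scalings. It was 0.988 without mouse 92 and 0.995 with the robust prior and per-gene degrees of freedom. Cd4 is transcribed in some macrophages and dendritic cells, Cd8a in a dendritic subset, and Cd3 and zeta genes in NK and gamma-delta T cells. Of 15 macrophage and dendritic markers 10 were above background on all arrays, against 61.8% of all named genes. In limma 0 varied and 4 had an unadjusted p under 0.05, against 4.85% of all tested genes. The summed levels were 11.54, 12.19 and 11.74. Those not above background on all arrays were Adgre1, Fcgr1, Cd14, Xcr1 and Clec9a. Of these, Clec9a, of the dendritic subset that expresses Cd8a, was at 4.22, 4.34 and 4.48. Of 12 gamma-delta T, NK and cytotoxic markers 9 were above background, 0 varied and 4 had an unadjusted p under 0.05 (limma), with summed levels of 11.09, 11.66 and 11.37. Those not above background on all arrays were Klrb1c (at 4.34, 4.55 and 4.38), Ncr1 and Eomes. Eomes, among the 4 at an unadjusted p under 0.05, was at 5.46 in mouse 92, under the threshold of 5.91. On the deposited scale these 4 lists were highest in mouse 103 in their summed levels. So were Cd3d, Ptcra, the erythroid and epithelial lists and the median over named genes. The stromal list was nearly the same in mice 92 and 103, at 10.61 and 10.62. The part of these lists in the values of the 8 genes was not tested.

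The remaining lists were those of erythroid, epithelial and stromal cells. Of 6 measured erythroid markers 5 were above background and Alas2, the haem synthesis enzyme, varied (adjusted p = 0.00291, limma). Its adjusted p (limma) was 0.059 after median centring, 0.998 without mouse 92 and 0.997 with the robust prior and per-gene degrees of freedom. The summed levels were 9.42, 10.76 and 10.58 in mice 92, 103 and 106. Alas2 had the highest level of the list, at 8.18, 10.14 and 10.03. Epor was at 6.50, 6.59 and 6.47 and Hemgn at 6.40, 6.36 and 6.39. On the deposited values 4 of the 6 were lowest in mouse 92, against 35.1% of all tested genes. After quantile normalization, and likewise after cyclic loess, 3 of the 6 were. In limma 3 (Alas2, Car1 and Slc4a1) had an unadjusted p under 0.05. Thymic epithelial markers were above background on all 3 arrays in 6 of 8 cases and fibroblast and endothelial markers in 5 of 9. This compares with 61.8% of all named genes. In limma 0 of either list varied, with 1 (Krt8) and 0 at an unadjusted p under 0.05. Their summed levels were 10.41, 10.55 and 10.41, and 10.61, 10.62 and 10.54.

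For each of the 8 genes, the named genes with the most similar deviations over the 3 arrays were found by the root mean square difference. They were Hdac3 and Phox2a for Cd3d, Lrch3 and Pstk for Cd3e, Zfp706 and Reep5 for Cd3g, and Vti1b and Dennd6b for Cd247. Card19 and Med11 were nearest to Ptcra, Pnn and Btbd3 to Cd4, Arhgap32 and Arhgap45 to Cd8a, and Ccp110 and Vmac to Cd8b1. The differences were 0.0002 to 0.0033 on the log2 scale. With 3 arrays many genes lie close: of 12314 other genes above background on all arrays, 1225 to 1789 lay within 0.05 of each of Cd3e, Cd3g, Cd247, Ptcra, Cd4, Cd8a and Cd8b1. Cd3d had 385 such genes, 3.13% of those compared. Of these nearest genes, Hdac3, a histone deacetylase gene, was at 10.43, 10.63 and 10.24 in mice 92, 103 and 106.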

How the data were processed

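Thymocyte RNA of 3 wild-type mice (Trizol extraction, biotin label, per the labels' protocols) was measured on MoGene 1.0 ST arrays. The authors deposited log2 levels for 35557 probe sets, made with Affymetrix Expression Console, per the submitters' processing notes; its version and its background, summary and normalization steps are not stated there. The log2 scale was inferred from the values (1.76 to 14.96). Of the probe sets, 21789 had 1 gene symbol, 1621 several and 12147 none listed; probe sets of a gene were averaged. Of the named probe sets, 21698 matched the RefSeq table of assembly GRCm38.p6 by Entrez identifier, and 0 symbols changed. Coordinates are printed only for promoter windows of that build, since none is given for the probes.

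The spread between mice was tested in limma (version 3.58.1, R version 4.3.3) by an intercept fit, eBayes with a trend on level (10.4 prior degrees of freedom), each gene's variance over its prior as an upper-tail F ratio, and Benjamini-Hochberg adjustment over 13316 genes, with a threshold of 0.05. Alternatives changed the scaling, the prior, the filter, the background percentile and the probe set rule, and left out each mouse. The 8 genes and all lists were chosen with earlier results of these data known. Named were the 8 genes, list genes that passed or had the widest or narrowest spans, neighbours and nearest patterns; a few others were named after their values were seen.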

Additional observations from a re-analysis of the deposited data

How the results depend on the processing

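The 8 genes stayed above background after quantile normalization, after cyclic loess, under the probe set rule and against the stricter 99th percentile. Median centring and leaving out a mouse could not change this, since the threshold was set on each array separately. Of the 8 genes 0 varied between mice under the scalings, priors, filter and probe set rule tried or with a mouse left out. Over 88 repeated tests of single genes the smallest adjusted p was 0.596 (limma), for Cd3d without mouse 92. At an unadjusted p under 0.05, only Cd3d without mouse 92 passed. The mean levels and the 5 within-array differences moved by less than their SD between mice after quantile normalization and after cyclic loess. Leaving out 1 of 3 mice can never move a mean by as much as that SD, so it was no check here. The probe set rule could not move these values, since each gene has 1 probe set, nor could median centring. The count of varying genes over the whole array, 30, changed by over 1.5 times in several settings: 13 after quantile normalization, 18 after median centring, 16 after cyclic loess, 0 with a robust prior and per-gene degrees of freedom (limma; 600 at an unadjusted p under 0.05), and 51 to 84 when 1 mouse was left out (58 without mouse 92, 51 without mouse 103, 84 without mouse 106). The cause was not tested. No paired analysis was possible because the labels give 1 group. The 3 arrays bound what could be seen: a gene below the threshold may still differ between mice, and heights above background carry probe affinity.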
